A study of Mus musculus with 6 samples.

Results

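Mitosis and cytokinesis genes encode the proteins that take a cell from entry into mitosis to the separation of its daughters. A set of 40 such genes was followed in the E12.5 mouse heart, taken from the table by gene symbol. All 40 were found among the 30619 rows of the count table, and all 40 were among the 17557 genes that passed the filter on low counts and were tested. Poly(A) RNA of mixed embryonic cardiac cells was measured in 3 libraries of control hearts (genotype label WT) and in 3 libraries of hearts whose titles read CKO, a conditional knockout of Trim28. The genotype label of those 3 reads TRIM28 knockdown, and the titles were followed. TRIM28 is a co-repressor that zinc finger proteins bring to DNA, and the series concerns its part in the growth of the ventricular wall. The sources used here do not give the Cre driver, the deleted exons, the strain, the number of hearts in a library or a batch. No label says how hearts were divided among the libraries, and the p-values cover only the spread among these 6 libraries. Values are given for 3 libraries a group throughout.

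Cyclin-dependent kinase 1 with its cyclins starts mitosis, motors and kinetochore proteins build the spindle and attach chromosomes to it, a checkpoint holds the cell until attachment is complete, and the anaphase-promoting complex then destroys cyclins and securin. Aurora B with its partners and the centralspindlin proteins finally direct the cleavage furrow. Most of these genes are transcribed late in the cell cycle, through promoters that carry CCAAT boxes, bound by NF-Y, and a cell cycle genes homology region (CHR), bound by the MuvB core with B-Myb and FoxM1 or, in resting cells, with the repressive DREAM complex. The embryonic heart still grows by division of its cells, cardiomyocytes included, and division is most frequent in the compact outer wall.

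The libraries held between 34400841 and 39763233 counts, and 23736 to 24725 genes had a count. Trim28 itself was at 305, 391 and 442.5 CPM in controls 1, 2 and 3 (CPM, counts scaled to the TMM-adjusted library size). CKO 1, 2 and 3 had 172, 314 and 165 CPM. The library labelled CKO 2 lay within the control range, and the difference did not pass the test (log2 fold change -0.81, SE 0.34, edgeR adjusted p = 0.339). DESeq2 did not call it either (adjusted p = 0.179), while limma-voom (log2 fold change -0.86, adjusted p = 0.0165) and a non-robust edgeR fit (adjusted p = 0.0194) did. A ribosomal RNA row (CT010467.1) took 0.126 to 0.522% of counts in controls and 0.563 to 0.79% in CKO libraries, so it was higher in every CKO library. Sex-linked transcripts also differed between libraries, and in part with the groups. Xist was lower in every CKO library (420, 0.203 and 0.101 CPM) than in every control (618, 943 and 469 CPM). Ddx3y averaged 23.9 CPM in controls and 59.9 CPM in CKO libraries, with overlapping groups. Control 2 had 0 counts of the Y-linked Ddx3y against 1153 to 2626 in the other libraries, and CKO 2 and CKO 3 had 7 and 4 counts of Xist against 15232 to 36330 elsewhere. The libraries of either group thus did not all hold RNA of the same hearts.

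Mitosis and cytokinesis genes were slightly lower in CKO hearts as a group, and the differences were small. Of the 40 genes, 36 had a negative log2 fold change (CKO over control), with a median of -0.11 and a range of -0.25 to 0.07. Over all tested genes the median was 0.00, and 49.2% were negative. Only 3 of the 40 passed the test, all of them lower in CKO hearts: Kif11, Nusap1 and Nuf2 (7.5% of the genes, edgeR quasi-likelihood test, adjusted p under 0.05). Over all tested genes, 1.07% were called lower and 4.1% in either direction. None of the 40 was called higher, against 3.03% of all tested genes, and none was higher at an unadjusted p under 0.05 either, against 10.1%. DESeq2 and limma-voom also called 0 of the 40 higher. At an unadjusted p under 0.05, 18 of the 40 were lower, against 7.69% of all tested genes. In 20 of the 40 genes (50%) every CKO library was below every control library, against 10.6% of all tested genes, and in 0 was every CKO library above, against 11.5%. In bulk RNA, fewer dividing cells and less of these RNAs per dividing cell cannot be told apart.

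Summed over the 40 genes, the level was 4445, 4524 and 4456 CPM in controls 1, 2 and 3 and 4228, 4042 and 4154 CPM in CKO 1, 2 and 3. The groups did not overlap. The CKO mean of 4141 ± 93.7 CPM was 7.46% below the control mean of 4475 ± 42.8 CPM (± SD, n = 3 for either group). Relative to the control mean, the median gene was at a log2 ratio of -0.07 in CKO 1, -0.16 in CKO 2 and -0.11 in CKO 3. The library labelled CKO 2, which had the most Trim28 RNA among the CKO libraries, held the lowest value of the 6 libraries for 23 of the 40 genes. The library labelled CKO 1 was the closest to the controls: it held the lowest value for 6 genes and the highest for another 6.

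**Figure D1:**
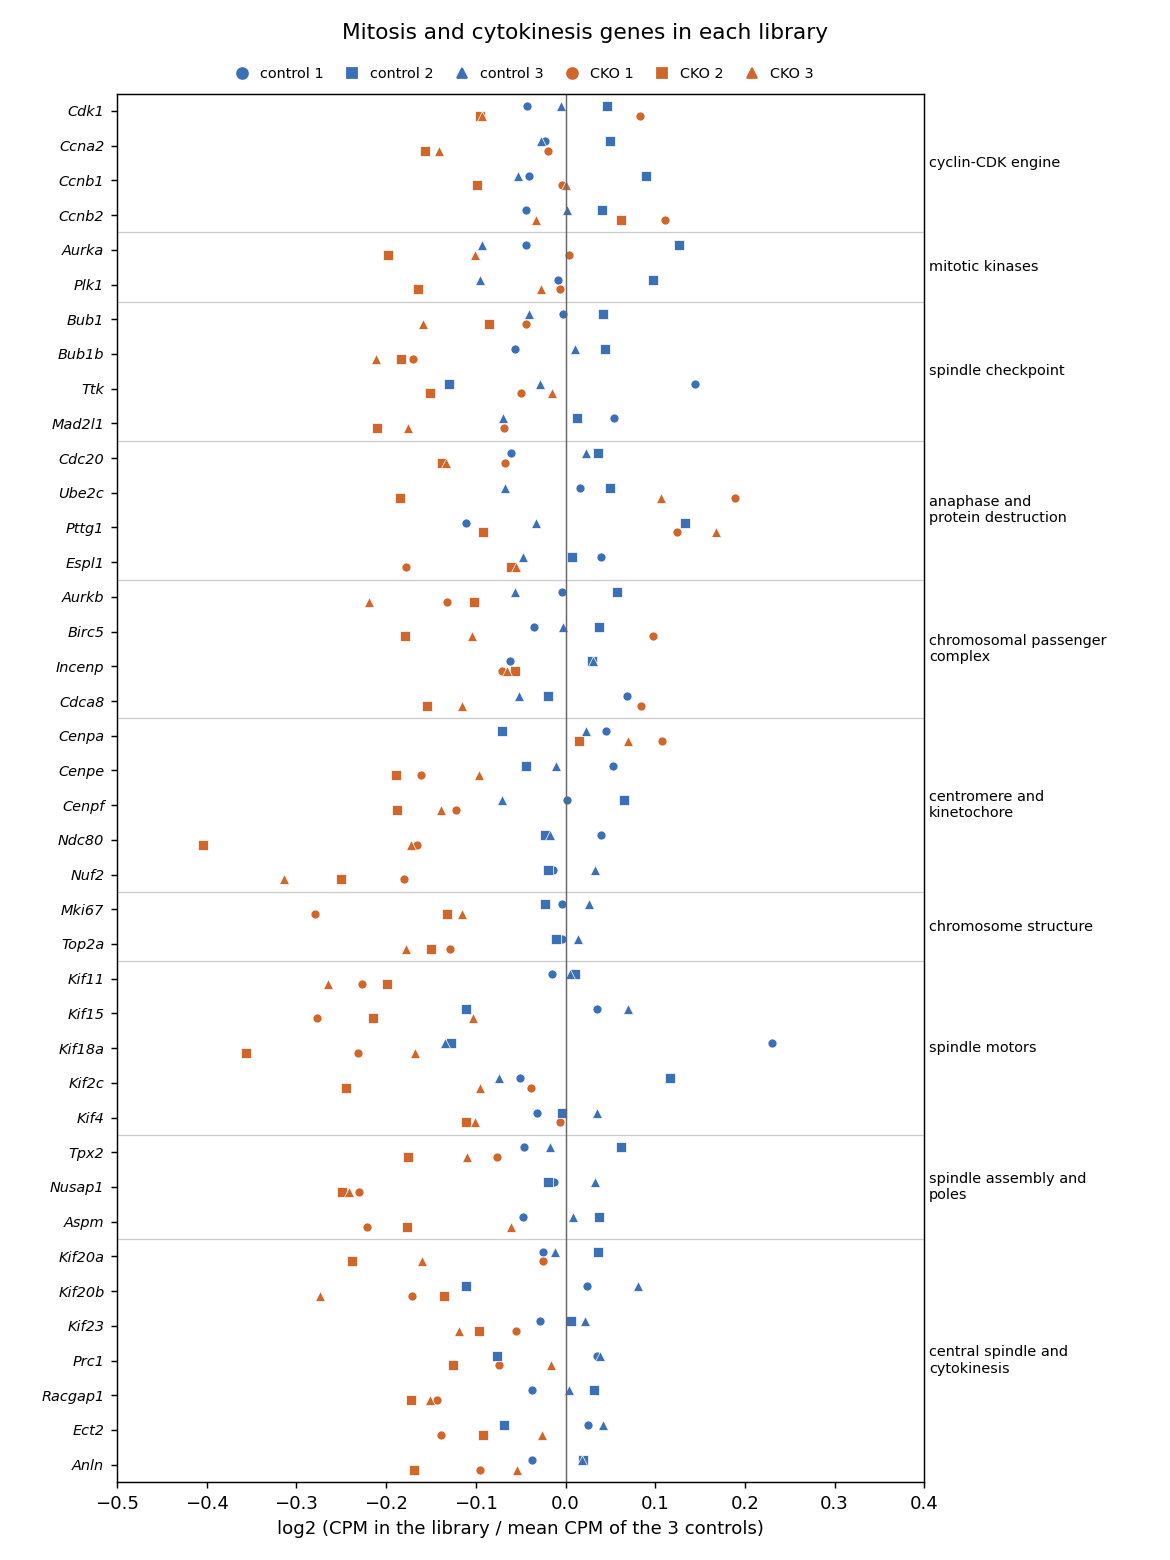
Each of the 40 genes in each of the 6 libraries, as the log2 of its CPM over the mean CPM of the 3 controls (horizontal axis), ordered by role. Blue points are controls and orange points CKO libraries; for Kif11, Nusap1, Nuf2, Top2a and Mki67 all orange points lie left of all blue points, while Ube2c and Pttg1 have orange points on both sides of 0.

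The 3 genes called lower act on the spindle. Kif11 encodes the tetrameric kinesin that slides antiparallel microtubules apart and makes the spindle bipolar. It was at 153, 156 and 155 CPM in controls and at 132, 135 and 129 CPM in CKO libraries. All CKO values were below all control values, and the means of 154 ± 1.44 and 132 ± 3.02 CPM differed by 14.7% (log2 fold change -0.23, SE 0.05, edgeR adjusted p = 0.0147). Nusap1 encodes a nucleolar and spindle-associated protein that stabilises and crosslinks microtubules near chromosomes. It was at 77.2, 76.9 and 79.7 CPM in controls and at 66.4, 65.6 and 65.9 CPM in CKO libraries. The groups were again apart, at means of 77.9 ± 1.54 and 66.0 ± 0.437 CPM, 15.3% lower in CKO (log2 fold change -0.24, SE 0.06, edgeR adjusted p = 0.0218). Nuf2 encodes a subunit of the NDC80 complex, which holds microtubule ends at the kinetochore. It was at 53.5, 53.3 and 55.3 CPM in controls and at 47.7, 45.4 and 43.5 CPM in CKO libraries. These values did not overlap either, with means of 54.1 ± 1.1 and 45.6 ± 2.12 CPM, 15.8% lower in CKO (log2 fold change -0.25, SE 0.07, edgeR adjusted p = 0.0384).

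These calls rested on the full set of libraries. Kif11 was still called without CKO 1 (edgeR adjusted p = 0.0196) and without CKO 2 (0.00427), but not without control 1, 2 or 3 (0.0621, 0.0714 and 0.0737) or without CKO 3 (0.107). Nusap1 kept its call without CKO 1 (edgeR adjusted p = 0.0321) and CKO 2 (0.0168) and lost it without control 1, 2 or 3 (0.0813, 0.0693 and 0.11) or CKO 3 (0.103). Nuf2 did the same, with 0.0297 and 0.0309 without CKO 1 and CKO 2, and 0.109, 0.107 and 0.155 without control 1, 2 and 3 and 0.212 without CKO 3. Without CKO 2, 5 of the 40 genes were called in place of 3, with Mki67 and Bub1b added (edgeR adjusted p = 0.0245 and 0.0349). Over all tested genes, 39 to 67 were called lower without control 1, 2 or 3 or CKO 3, fewer than 188 also without CKO 1, and 540 without CKO 2, against 188 with all libraries. The counts among the 40 thus moved with those over all genes. The fold changes of Kif11, Nusap1 and Nuf2 stayed between -0.21 and -0.28 in the 6 fits. The ribosomal RNA row moved with the groups. With the log2 of its share of total counts as a covariate, none of the 40 genes was called, at a median log2 fold change of -0.13. The edgeR adjusted p was 0.444 for Kif11, 0.538 for Nusap1 and 0.553 for Nuf2 in this fit. That fit called only 3 of all tested genes lower, against 188 without the covariate, and 53 higher, against 532. A covariate for Y-linked expression also left 0 calls (0.0974, 0.0887 and 0.148), with a median of -0.10, and here 37 of all tested genes were called lower and 274 higher. The loss of calls was therefore general to the tested genes in both fits and not a result about the 40.

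**Figure D2:**
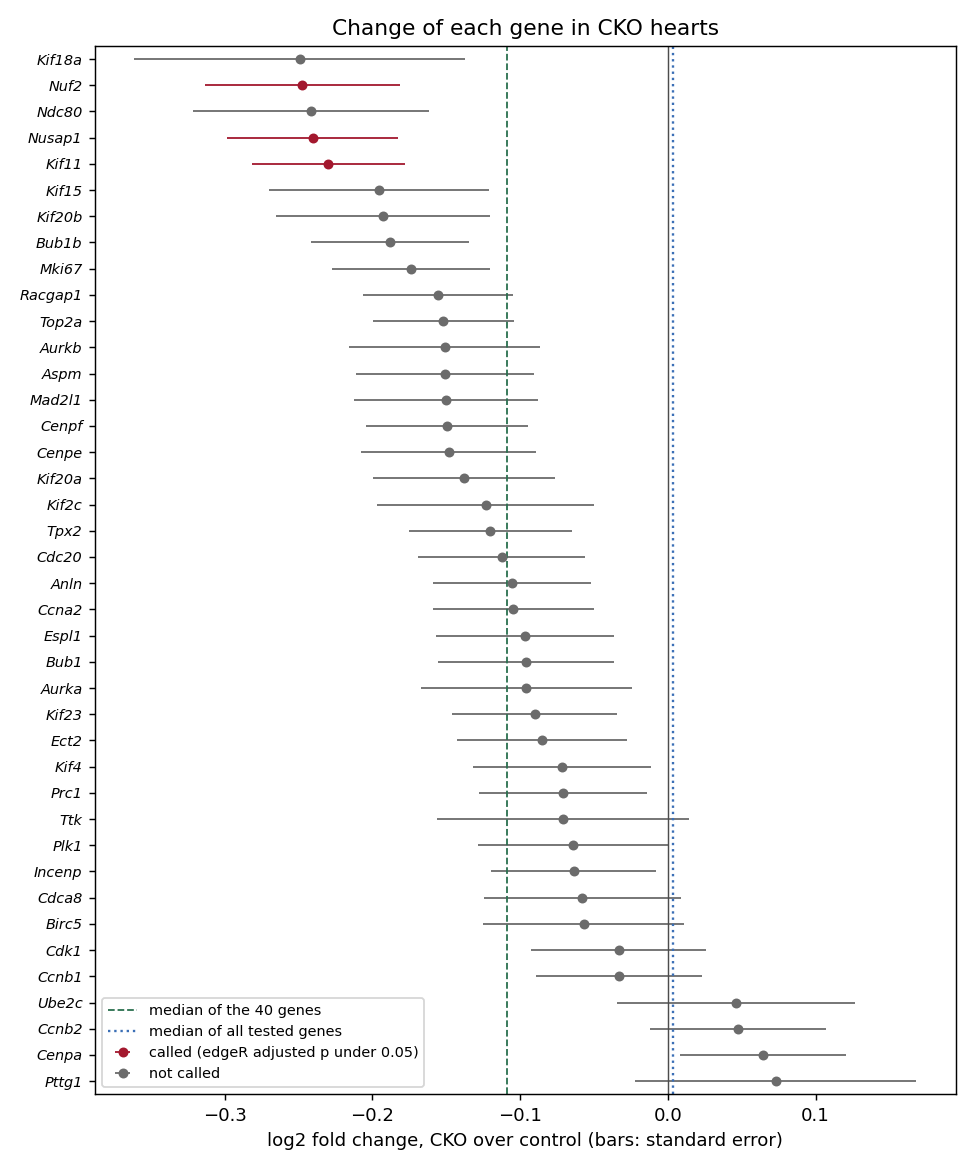
Log2 fold change of each of the 40 genes, CKO over control (horizontal axis, bars are 1 standard error), sorted from lowest to highest. Red points passed the test; the dashed line is the median of the 40 genes at -0.11 and the dotted line the median of all tested genes at 0.00.

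The upstream sequences of the 3 called genes and of Ccnb1, the gene whose fold change was nearest 0, show how the late cell cycle motifs were placed in genes that did and did not change. Each run is the 250 bases before the RefSeq start site (GRCm38.p6), 5′ to 3′ on the strand of the gene. Capitals mark a CHR-type motif (TTTGAA or TTCGAA) or the NF-Y motif CCAAT, read on either strand, so that TTCAAA and ATTGG are the reverse complements of TTTGAA and CCAAT. Kif11 lies on chromosome 19 (ENSMUSG00000012443.4, 37376403 to 37421859, plus strand) and its sequence is chr19:37376132-37376381. Nusap1 lies on chromosome 2 (ENSMUSG00000027306.15, 119618298 to 119651244, plus strand) and its sequence is chr2:119618048-119618297. Nuf2 lies on chromosome 1 (ENSMUSG00000026683.14, 169497934 to 169531464, minus strand) and its sequence is chr1:169531465-169531714, read from the minus strand. The Ccnb1 sequence is chr13:100786487-100786736, also read from the minus strand.
Kif11: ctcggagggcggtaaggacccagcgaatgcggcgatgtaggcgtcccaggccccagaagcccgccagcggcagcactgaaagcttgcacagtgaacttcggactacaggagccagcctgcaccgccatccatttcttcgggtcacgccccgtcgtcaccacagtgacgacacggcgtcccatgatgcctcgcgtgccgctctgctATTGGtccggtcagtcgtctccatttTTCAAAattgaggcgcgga
Nusap1: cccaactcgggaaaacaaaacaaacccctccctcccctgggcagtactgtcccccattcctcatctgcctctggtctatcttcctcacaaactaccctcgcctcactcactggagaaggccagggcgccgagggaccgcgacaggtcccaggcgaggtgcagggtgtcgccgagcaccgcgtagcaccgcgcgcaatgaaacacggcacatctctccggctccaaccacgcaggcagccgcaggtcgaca
Nuf2: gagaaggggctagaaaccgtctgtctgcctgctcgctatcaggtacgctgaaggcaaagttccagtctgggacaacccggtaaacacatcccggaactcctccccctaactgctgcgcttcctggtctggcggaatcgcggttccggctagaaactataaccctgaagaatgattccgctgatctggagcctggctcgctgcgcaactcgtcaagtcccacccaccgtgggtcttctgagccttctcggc
Ccnb1: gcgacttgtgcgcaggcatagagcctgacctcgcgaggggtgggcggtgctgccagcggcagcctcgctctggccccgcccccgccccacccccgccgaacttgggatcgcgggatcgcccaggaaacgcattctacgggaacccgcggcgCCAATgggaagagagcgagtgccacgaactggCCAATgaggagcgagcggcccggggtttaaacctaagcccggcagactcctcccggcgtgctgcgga
Kif11 held an inverted CCAAT from position -45 and an inverted TTTGAA from position -19, counted from the start site. Ccnb1 held CCAAT on the strand of the gene at -99 and at -67 and neither CHR-type spelling. Nusap1 and Nuf2 held neither motif in the window, which extended from 250 bases before to 50 after the start.

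Windows of this kind were available in RefSeq for 35 of the 40 genes, all but Ccna2, Aurkb, Incenp, Kif20a and Tpx2. A CHR-type motif was present in 27 of the 35 (77.1%), against 19.2% of all 32851 windows of the table and 13.9% of the 12033 windows of tested genes. CCAAT was present in 24 (68.6%), against 37.4% and 38.1%, and at least 2 copies in 16 (45.7%), against 11.7% and 14.2%. Both motifs stood together in 22 windows (62.9%), against 7.52% and 5.83%. Of the 38 CHR-type matches, 29 started within 100 bases before or 50 bases after the start site. The 27 genes whose window held a CHR-type motif had a median log2 fold change of -0.10, with 24 negative and 1 called. The 8 whose window held none had a median of -0.15, with 7 negative and 2 called. As a separate limit, only 27 windows had their bases after the start in an annotated transcript of the gene. The Mad2l1 window, without a motif, ended at base 66535270, before the annotated gene start at 66535390. Whether the motif bears on the fold change was not tested. A match of these letters is not a measured binding site.

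**Figure D3:**
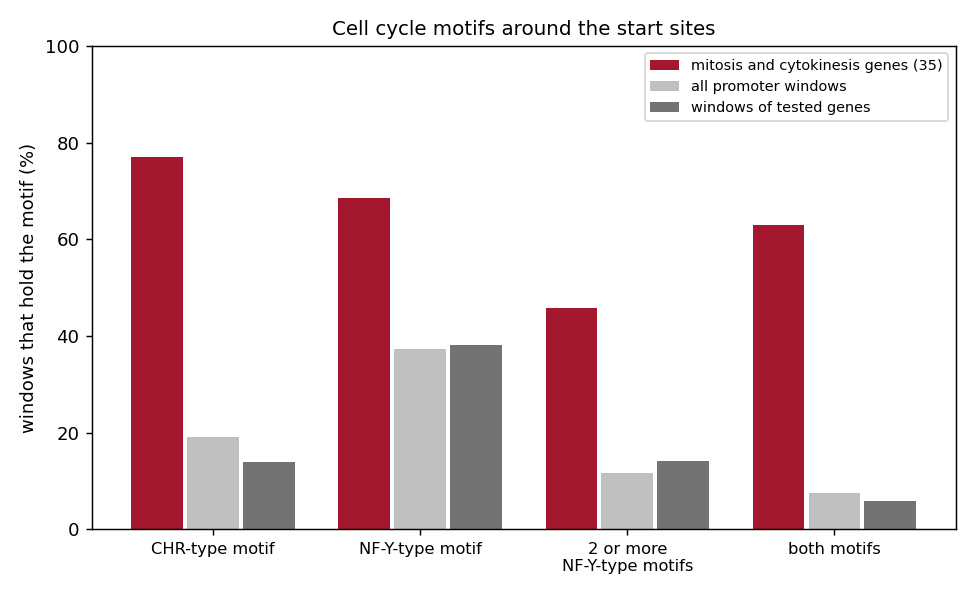
Percentage of promoter windows (vertical axis) that hold a CHR-type motif, CCAAT (NF-Y-type), at least 2 CCAAT, or both motifs. Red bars are the 35 windows of mitosis and cytokinesis genes, of which 77.1% hold a CHR-type motif; grey bars are all windows of the table and the windows of tested genes.

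Of the cyclin and kinase genes that start mitosis, Cdk1, Ccnb1 and Ccnb2 were close to their control levels. Ccna2 and Aurka were near the median log2 fold change of the 40 genes, -0.11. Cdk1, the mitotic kinase itself, was at 132, 141 and 136 CPM in controls and at 144, 128 and 128 CPM in CKO libraries. Ccnb1, its main cyclin, was at 174, 191 and 173 CPM and at 179, 167 and 179 CPM. The groups overlapped for both, and the log2 fold changes were -0.03 (SE 0.06) in each case, with edgeR adjusted p of 0.841 and 0.832. Ccnb2, the other B-type cyclin here, was at 79.7, 84.5 and 82.2 CPM in controls and 88.7, 85.7 and 80.3 CPM in CKO, a log2 fold change of 0.05. Ccna2, the cyclin that acts from S phase into mitosis, was at 184, 193 and 183 CPM in controls and 184, 168 and 169 CPM in CKO. Its log2 fold change was -0.10 (SE 0.05, edgeR adjusted p = 0.334). None of these 4 genes was called, and none had groups that were fully apart. Aurka, the spindle pole kinase, and Plk1, the polo-like kinase, had log2 fold changes of -0.10 and -0.06, and their groups overlapped. Aurka was at 62.3 to 72.6 CPM in controls and 57.9 to 66.6 CPM in CKO, and Plk1 at 85.3 to 97.5 and 81.3 to 90.7 CPM.

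The 4 spindle checkpoint genes all had negative fold changes, with a median of -0.12, and none was called. Bub1b, which encodes the checkpoint protein BubR1, came closest. It was at 139, 149 and 145 CPM in controls and at 128, 127 and 124 CPM in CKO libraries, with no overlap and means of 144 ± 5.05 and 126 ± 1.81 CPM (log2 fold change -0.19, SE 0.05, edgeR adjusted p = 0.0524). DESeq2 called it (adjusted p = 0.0162). Bub1, the related kinase at kinetochores, was at 78.4, 80.9 and 76.4 CPM and at 76.2, 74.1 and 70.4 CPM. Its groups were apart by a narrow margin, at a log2 fold change of -0.10. Mad2l1, which makes the inhibitor of the anaphase-promoting complex, had a log2 fold change of -0.15 and Ttk, the kinase also called Mps1, one of -0.07. Both had overlapping groups.

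The genes of anaphase onset and protein destruction showed no common direction. Ube2c, the ubiquitin-conjugating enzyme of the anaphase-promoting complex, was at 158, 162 and 149 CPM in controls and at 178, 138 and 168 CPM in CKO. The CKO libraries thus lay on both sides of the controls, at means of 156 ± 6.45 and 161 ± 21.2 CPM. Pttg1, which encodes securin, had the highest log2 fold change of the 40 genes at 0.07 (SE 0.10, edgeR adjusted p = 0.769), with overlapping groups at 22.1 to 26.1 and 22.4 to 26.8 CPM. Cdc20, the activator of the complex, was at 95.1, 102 and 101 CPM in controls and 94.7, 90.2 and 90.4 CPM in CKO, a log2 fold change of -0.11. Espl1, which encodes separase, the protease that opens cohesin, was at 82.6, 80.8 and 77.8 CPM and at 71.1, 77.1 and 77.4 CPM, a log2 fold change of -0.10. Neither was called, although neither had overlapping groups.

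The chromosomal passenger complex corrects wrong attachments and later marks the cell's midzone. Its 4 genes were all negative, with a median log2 fold change of -0.06. Aurkb, the kinase of the complex, was at 60.2, 62.9 and 58.1 CPM in controls and 55.1, 56.3 and 51.9 CPM in CKO, without overlap (log2 fold change -0.15, SE 0.06, edgeR adjusted p = 0.216). Its partners Birc5 (survivin), Incenp (the scaffold) and Cdca8 (borealin) had log2 fold changes of -0.06 each, and the groups overlapped for all 3.

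Among the 5 centromere and kinetochore genes, the 4 that encode outer proteins in contact with microtubules had groups that were apart, and the gene of the centromeric histone did not. Beside Nuf2, its direct partner Ndc80 was at 38.8, 37.1 and 37.3 CPM in controls and at 33.6, 28.5 and 33.5 CPM in CKO. The groups were apart and the CKO mean was 15.4% lower, but the gene was not called (log2 fold change -0.24, SE 0.08, edgeR adjusted p = 0.102). Cenpe, the kinetochore motor, was at 83.9, 78.4 and 80.3 CPM and at 72.3, 70.9 and 75.6 CPM. Cenpf, a large protein of the outer kinetochore, was at 146, 153 and 139 CPM and at 134, 128 and 133 CPM. Both had a log2 fold change of -0.15 and groups that did not overlap, and neither was called (edgeR adjusted p = 0.182 and 0.142). Cenpa, the histone variant of centromeres, was at 118, 109 and 116 CPM in controls and 123, 115 and 120 CPM in CKO, a log2 fold change of 0.06 with overlapping groups.

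By CPM, which is not corrected for length, the highest of the 40 genes act on chromosome structure. Per kilobase of exon, Top2a and Mki67 ranked 4 and 8 of the 40 in controls. Top2a, the topoisomerase that untangles sister chromatids, was at 451, 449 and 456 CPM in controls and at 413, 407 and 399 CPM in CKO libraries. Mki67, which encodes the Ki-67 protein that coats mitotic chromosomes and is widely used to stain cycling cells, was at 377, 372 and 385 CPM and at 311, 345 and 349 CPM. In both genes every CKO library was below every control. Top2a was 9.99% lower (452 ± 3.84 and 407 ± 6.94 CPM, log2 fold change -0.15, SE 0.05, edgeR adjusted p = 0.0836). Mki67 was 11.4% lower (378 ± 6.48 and 335 ± 20.5 CPM, log2 fold change -0.17, SE 0.05, edgeR adjusted p = 0.0763). Neither passed the edgeR test. DESeq2 called both, with adjusted p of 0.0149 and 0.0296.

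The 5 spindle motor genes had the lowest median log2 fold change of the 10 roles, -0.20, and all 5 were negative. Summed over the 5, the level was 346, 347 and 347 CPM in controls and 311, 302 and 307 CPM in CKO, with Kif11 the largest contributor. Kif15, which can share the work of Kif11, was at 47.8, 43.2 and 48.9 CPM and at 38.5, 40.2 and 43.4 CPM. CKO 3 reached just above control 2, and the gene was not called (log2 fold change -0.20, SE 0.07, edgeR adjusted p = 0.158). Kif18a, which dampens chromosome movement at metaphase, had the lowest log2 fold change of the 40 genes at -0.25, but with a wide error (SE 0.11, edgeR adjusted p = 0.245). It was at 23.0, 17.96 and 17.9 CPM in controls and 16.7, 15.3 and 17.5 CPM in CKO, and control 1 stood apart from the other controls. Kif2c, a microtubule depolymerase at centromeres, and Kif4, a chromosome-bound kinesin, had log2 fold changes of -0.12 and -0.07 with overlapping groups.

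In the group of spindle assembly and pole proteins, all 3 genes had groups that did not overlap. Beside Nusap1, Tpx2, which activates Aurora A on the spindle, was at 133, 143 and 135 CPM in controls and at 129.8, 121 and 127 CPM in CKO (log2 fold change -0.12, SE 0.06, edgeR adjusted p = 0.259). Aspm, a spindle pole protein known from inherited microcephaly, was at 90.0, 95.5 and 93.6 CPM and at 79.8, 82.3 and 89.2 CPM (log2 fold change -0.15, SE 0.06, edgeR adjusted p = 0.181).

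All 7 genes of the central spindle and cytokinesis had negative fold changes, with a median of -0.11, and none was called. Racgap1, the GTPase-activating subunit of centralspindlin, was at 179, 188 and 184 CPM in controls and at 166, 163 and 166 CPM in CKO libraries. The groups were apart, at 184 ± 4.44 and 165 ± 1.73 CPM, 10.2% lower in CKO (log2 fold change -0.16, SE 0.05, edgeR adjusted p = 0.0983, DESeq2 adjusted p = 0.0386). Kif23, its kinesin partner, was at 88.9, 91.0 and 92.0 CPM and at 87.3, 84.8 and 83.5 CPM, a log2 fold change of -0.09. Kif20b, a kinesin of the midbody, had a log2 fold change of -0.19 and Anln (anillin), the scaffold of the contractile ring, one of -0.11. Both had groups that were apart. Kif20a, which carries the passenger complex to the midzone, had a log2 fold change of -0.14. Prc1, which bundles midzone microtubules, and Ect2, the exchange factor that activates RhoA at the furrow, had -0.07 and -0.09. The groups overlapped for these 3.

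Compared per length, as CPM per kilobase of exon in controls, the highest levels were those of Ube2c (60.1), Ccnb2 (53.6), Cdc20 (53.1) and Top2a (50.1), and the lowest those of Kif18a (2.0), Kif15 (4.23), Ndc80 (5.81) and Ttk (6.47). Longer genes among the 40 had lower fold changes. The 7 genes with under 3 kb of exon had a median log2 fold change of -0.06, with 4 negative, and the 16 of 3 to 6 kb had -0.08, with 15 negative. The 10 of 6 to 9 kb and the 7 over 9 kb both had a median of -0.15, and all of them were negative. Spearman's rho of exonic length against log2 fold change was -0.49 across the 40 genes and -0.08 across 14353 tested protein-coding genes, whose medians in the same classes were 0.02, 0.00, -0.01 and -0.02. The genes share the 6 libraries and are not independent points, and rho is a description. Exonic bases are shared with another annotated gene in 11 of the 40. Nusap1 shares 172 bases with Oip5 on the opposite strand, and it is not given whether counting used strand. Oip5 averaged 10.6 ± 0.826 CPM over controls and 9.54 ± 0.189 CPM over CKO libraries, far below the level of Nusap1.

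**Figure D4:**
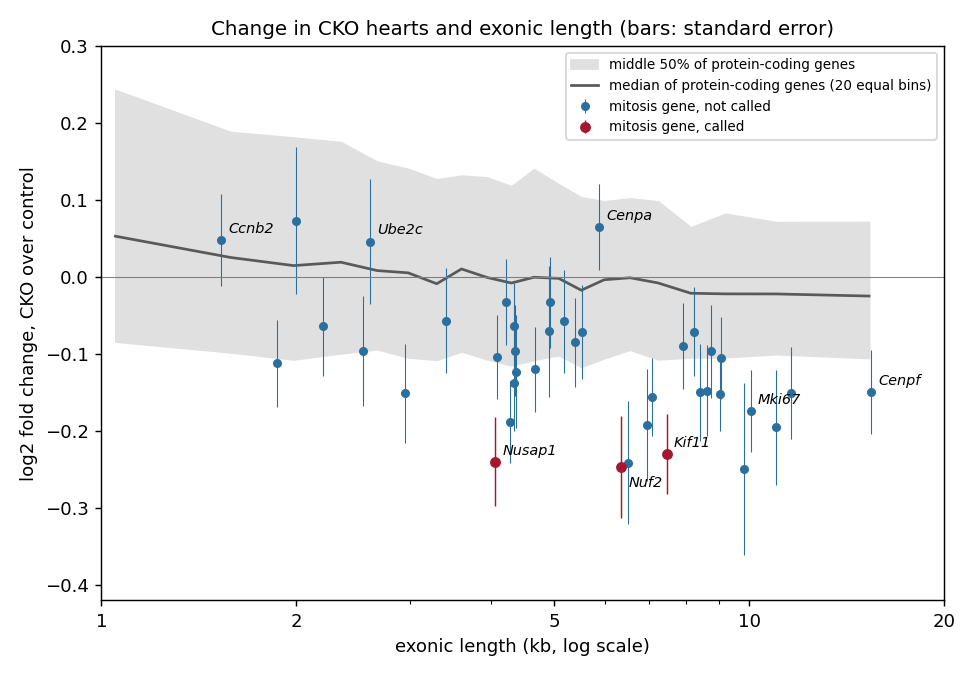
Log2 fold change of the 40 genes (vertical axis, bars are 1 standard error) against exonic length in kb (log scale). The grey band holds the middle 50% of protein-coding genes and the line is their median; the 17 mitosis genes longer than 6 kb all lie below 0.

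Other genes of cell division and of the cell cycle were counted in lists beside the 40, with none of the 40 repeated. The DNA replication list, whose genes act in the phase before mitosis, had the lowest median. All 29 of its genes had negative log2 fold changes, with a median of -0.16. Every CKO library was below every control in 16 (55.2%, against 10.6% of all tested genes). Of the 29, 4 were called lower (13.8%, against 1.07% of all tested genes). Lig1, the DNA ligase of replication, was at 120 ± 2.31 and 103 ± 1.32 CPM (edgeR adjusted p = 0.0211). Cdc6, a loader of the replicative helicase, was at 39.9 ± 1.28 and 32.5 ± 1.57 CPM (edgeR adjusted p = 0.0282). The others were the helicase subunits Mcm6 and Mcm4 (edgeR adjusted p = 0.0374 and 0.0414). Condensin and cohesin genes, which fold chromosomes and hold sister chromatids, were negative in 19 of 20, with a median of -0.13. Groups were apart in 13 of them (65%), and 2 of the 20 were called lower (10%). Smc2, a core subunit of condensin, was at 156 ± 1.29 and 131 ± 2.87 CPM (log2 fold change -0.24, SE 0.05, edgeR adjusted p = 0.00945). Cdca5, also called sororin, which protects cohesion, was at 32.0 ± 4.78 and 23.9 ± 1.76 CPM (log2 fold change -0.42, SE 0.10, edgeR adjusted p = 0.0222). All 4 replication calls were lost without control 1, 2 or 3 or CKO 3, to edgeR adjusted p between 0.0557 and 0.197, and those of Cdc6 and Mcm4 also without CKO 1 (0.0652 and 0.075). Smc2 lost its call without control 1 (0.057) and control 3 (0.055), and Cdca5 without control 2 (0.16) and CKO 3 (0.096). Mcm6 and Mcm4 were not called with the replicate block (0.0611 and 0.075). None of these 6 genes was called with the ribosomal RNA covariate (edgeR adjusted p = 0.384 to 0.603) or the Y-linked covariate (0.0534 to 0.264).

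Among the other mitotic lists, 36 further kinetochore and checkpoint genes had a median log2 fold change of -0.10, with 27 negative and 0 called. Spc24, another subunit of the NDC80 complex, was nearest to a call (log2 fold change -0.25, SE 0.07, edgeR adjusted p = 0.0571), ahead of Nsl1 (-0.26, adjusted p = 0.123). A list of 33 other spindle, centrosome and midbody genes had a median of -0.09, with 29 negative and 0 called. The 16 subunits of the anaphase-promoting complex, which are present throughout the cell cycle, had a median of -0.03, with 12 negative. Every CKO library was below every control in 1 of the 16 (6.25%, against 10.6% of all tested genes). The same held for 10 of the 36 kinetochore and checkpoint genes (27.8%) and 13 of the 33 spindle, centrosome and midbody genes (39.4%). It also held for 2 of 14 genes of mitotic entry control (14.3%). In the list of mitotic entry control, 12 of 14 genes were negative around a median of -0.02, and Fbxo5, also called Emi1, an inhibitor of the anaphase-promoting complex, fell (41.6 ± 3.46 and 33.6 ± 2.06 CPM, log2 fold change -0.31, SE 0.08, edgeR adjusted p = 0.0346). Its call was lost without control 1, control 2 or CKO 3 (0.171, 0.14 and 0.186), and with the ribosomal RNA and Y-linked covariates (0.11 and 0.212).

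The 24 regulators that act on CHR, E2F and CCAAT sites had a median log2 fold change of -0.06, with 20 negative and 0 called. E2f1 was the nearest to a call, at 51.5, 53.7 and 52.9 CPM in controls and 44.0, 45.2 and 46.4 CPM in CKO (log2 fold change -0.22, SE 0.06, edgeR adjusted p = 0.0625). Of the 14 tested G1 cyclins, kinases and CDK inhibitors, 9 were negative and 1 was called. That gene, Cdkn1a, encodes p21, an inhibitor of cyclin-dependent kinases, and it rose. It was at 28.3, 29.2 and 24.7 CPM in controls and at 55.2, 37.8 and 50.5 CPM in CKO libraries. Every CKO library exceeded every control (log2 fold change 0.80, SE 0.13, edgeR adjusted p = 0.00691), and it was called in each of the 6 fits without 1 library. With the ribosomal RNA covariate its edgeR adjusted p was 0.32, and with the Y-linked covariate 0.0199. CKO 2, which had the lowest Cdkn1a of the CKO libraries, also had the lowest summed level of the 40 mitosis genes. Whether Cdkn1a bears on the level of these genes was not tested.

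**Figure D5:**
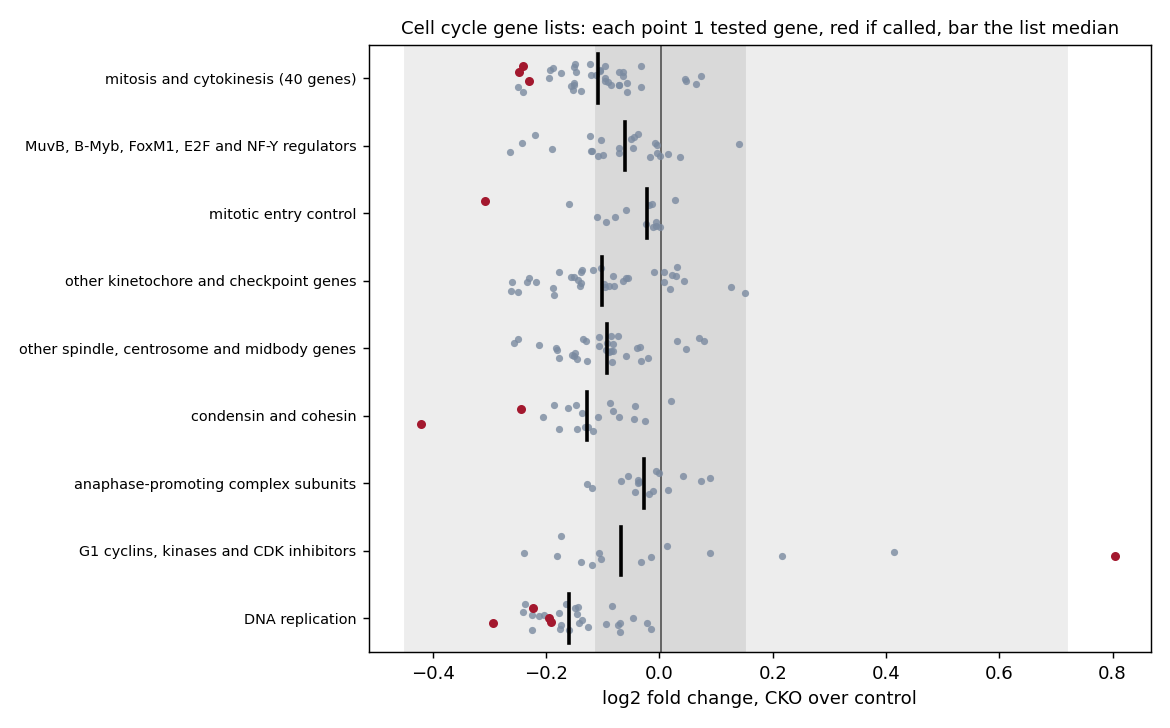
Log2 fold change, CKO over control (horizontal axis), of every tested gene in the 40-gene set and in 8 other cell cycle lists; red points passed the test and black bars are list medians. The dark and light grey bands hold the middle 50% and 90% of all tested genes; the DNA replication list has the lowest median, -0.16, and Cdkn1a stands alone at 0.80.

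Markers of cardiac cell types differed between the groups in part. All defining markers of cardiomyocytes were present in every library. Their summed level was 28141 to 29795 CPM in controls and 29956 to 30931 CPM in CKO, without overlap, but the markers did not rise together. Of the 9, 5 had positive and 4 negative log2 fold changes, with a median of 0.03. Only 1 was called (Myh6, higher, log2 fold change 0.33). Myh7 had a log2 fold change of -0.23 (edgeR adjusted p = 0.138, DESeq2 adjusted p = 0.0285). Endothelial markers summed to 1298 to 1359 CPM in controls and 1076 to 1250 CPM in CKO. Every CKO library was below every control for this sum too. Of the 8, 7 had negative and 1 a positive log2 fold change, with a median of -0.21. The test called 3 of the 8 lower (37.5%, against 1.07% of all tested genes). These were Tek, Cdh5 and Kdr, with log2 fold changes of -0.36, -0.30 and -0.26. Smooth muscle markers summed to 1508 to 1532 CPM in controls and 2140 to 2600 CPM in CKO, and 3 of 4 rose (Acta2, Myh11 and Cnn1). Macrophage markers summed to 78.1 to 87.4 and 90.8 to 109 CPM, with 2 of 8 higher (C1qa and C1qb). Neural crest and glia markers were at 7.45 to 8.50 and 9.04 to 10.7 CPM, with 0 of 3 called. The ranges overlapped for epicardial markers (343 to 367 and 325 to 367 CPM, 0 of 6 called), cushion mesenchyme markers (3097 to 3712 and 3204 to 3871 CPM, 1 of 6, Postn, lower) and erythroid markers (1292 to 2221 and 1165 to 1304 CPM, 0 of 13 called, 12 negative, median -0.42). Of the cushion markers, 5 were negative and 1 positive. The positive one, Col1a1, had every CKO library above every control but was not called (log2 fold change 0.28, edgeR adjusted p = 0.408). No marker was at 0 in any library. Tek, Acta2, Myh11 and Cnn1 were called in each of the 6 fits without 1 library. The other calls were lost in some: Cdh5 without control 2, control 3 or CKO 3 (edgeR adjusted p = 0.0541 to 0.0902), Postn without control 3, CKO 1 or CKO 3 (0.088 to 0.1), C1qa without control 1, control 3 or CKO 3 (0.0541 to 0.0904), Myh6 without control 1, control 2, CKO 1 or CKO 3 (0.0533 to 0.122), and Kdr and C1qb in all fits but that without CKO 2 (0.11 to 0.217 and 0.103 to 0.192). With the ribosomal RNA covariate, only Acta2 and Myh6 of the called markers kept their calls (edgeR adjusted p = 0.0352 and 0.00614), and Tek, Myh11 and Cnn1 were at 0.254, 0.299 and 0.308. With the Y-linked covariate, Cdh5, Kdr, Myh6 and C1qb lost theirs (0.0754, 0.257, 0.087 and 0.157). C1qb was also not called by limma-voom (adjusted p = 0.0523) or with the replicate block (0.0572). The part of these cell types in the lower level of the mitosis genes was not tested.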

How the data were processed

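Per the labels, the deposited values are raw counts, with 1 row for each gene symbol and 1 column for each of the 6 libraries. The submitters' processing notes name the build mm10. Aligner, counting program, annotation and strand setting: not given in the sources used here. Altered symbols (2017) were restored and positions and exonic lengths taken from GENCODE M21, in which 30152 of 30619 rows matched 1 gene. No row was blank and 0 columns belonged to other samples. Counts were tested with edgeR 4.0.16 in R 4.3.3 (filterByExpr at a minimum count of 10 and total of 15, TMM factors, glmQLFit robust, glmQLFTest two-sided, group only). The filter kept 17557 genes and removed 0.0756% of counts. P-values were adjusted by Benjamini-Hochberg over all tested genes, and calls made at an adjusted p under 0.05. Each SE was derived from the log2 fold change and its F statistic. The fit was also run on simulated counts with known changes, and its recovery of small changes is not given here. Groups and replicate numbers came from the titles. The 40 genes and all lists were chosen with earlier results of these data known, so lists received counts and medians and no test. All 40 genes could be named, with Trim28, the ribosomal RNA, Xist and Y-linked rows, and from each other list at most 4 genes by lowest adjusted p (2 in lists with no call). Oip5 was added after its values were seen. Promoters were read from RefSeq (GRCm38.p6) for the called genes and the gene nearest 0. The alternatives were other scaling (RLE, upper quartile, none), DESeq2 1.42.0, limma-voom (limma 3.58.1), non-robust and legacy edgeR fits, other filters, a replicate block, covariates, removal of erythroid and mitochondrial genes, and leaving out each library.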

Additional observations from a re-analysis of the deposited data

How the results depend on the processing

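Over 19 alternatives, 0 of the 40 genes were called higher, and the median log2 fold change stayed between -0.14 and -0.09, with 33 to 37 genes negative. The number called lower, 3 here, was 3 with RLE or upper-quartile factors, limma-voom and a non-robust fit, and 4 with a 1 CPM minimum in 3 libraries, with erythroid and mitochondrial genes removed, and with legacy dispersions, an alternative chosen after seeing the data. It was 6 without scaling factors and 6 without a filter on low counts, 7 with DESeq2 (Kif11, Nusap1, Nuf2, Top2a, Racgap1, Mki67 and Bub1b), 0 with the ribosomal RNA covariate and 0 with the Y-linked covariate. The cause was not tested. Leaving out 1 library gave 0 to 5 calls: 0 without control 1, 2 or 3 or CKO 3, 3 without CKO 1 and 5 without CKO 2. Over all tested genes, the same fits called 67, 48, 45 and 39 genes lower without control 1, 2 and 3 and CKO 3 and 540 without CKO 2, against 188 with all libraries, and without CKO 1 the count was also below 188. The covariates left 3 (ribosomal RNA) and 37 (Y-linked) genes called lower, and no filter and DESeq2 gave 388 and 321. The fits that called 0 of the 40 thus also called fewer of all tested genes lower than the main fit. Otherwise the counts went together only in part. DESeq2 called the most of the 40 (7), while the fit without CKO 2 called the most of all tested genes lower (540, with 5 of the 40). Uncalled log2 fold changes that changed sign were those of Cdk1 (0.0056), Ccnb1 (0.028) and Plk1 (0.0069) with the Y-linked covariate and of Ube2c (-0.014), Incenp (0.0032) and Twist1 (0.14) with the ribosomal RNA covariate. With 1 library left out, Ccnb1 ranged from -0.065 to 0.011 (positive without control 2), Ttk from -0.13 to 0.0036 (positive without control 1) and Ube2c from -0.032 to 0.15 (negative without CKO 1). Samples with the same replicate number did not deviate together (r = -0.00223, 0.0167 and 0.00136 for numbers 1, 2 and 3). This check used deviations from means of only 3 libraries over all tested genes. It cannot show whether the numbers mark shared litters or days, which the labels do not give. With the replicate block 2 genes were called lower (Kif11 and Nusap1, with Nuf2 at an edgeR adjusted p of 0.0657), and with 3 pairs not every sample correlated best with its own number.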
